A study of Homo sapiens with 4 samples.

Results

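The human genome carries long runs of zinc finger genes on chromosome 19. The genes described here are the 241 protein-coding genes of that chromosome whose symbol is ZNF followed by digits alone, out of 64252 gene IDs in the count table. The rule reads symbol, biotype and chromosome and contains no measured value. Ordered by gene start, 229 of them fell into 10 clusters, a cluster being a run of at least 4 members in which each start lay within 500 kb of the one before it. The other 12 lay outside clusters. Each cluster is named by its first and last member, and coordinates are on GRCh38 from GENCODE release 29.

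RNA-seq gene counts were available for Jurkat cells, an established T cell acute lymphoblastic leukemia line. Cells with a short hairpin RNA against SOX4 (sh-SOX4) were compared with cells carrying a scrambled hairpin (sh-Scb), with 2 libraries in each group. SOX4, a SOXC transcription factor, acts in early lymphocyte development. Both groups share the line and its own mutations, and the sources used here do not give the hairpin sequence, the vector, the time after transfection, or whether a clone or a pool was used.

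C2H2 zinc finger proteins read DNA with tandem fingers, each a short fold held around a zinc ion by a pair of cysteines and a pair of histidines. In most of the proteins on chromosome 19 the fingers follow a KRAB box, which recruits the corepressor TRIM28 and through it the histone methyltransferase SETDB1 and HP1 proteins. KRAB zinc finger proteins are best known for silencing transposable elements, and the family grew by repeated duplication of neighbouring genes. In the GENCODE translations the members had a median of 12 fingers, between 0 in ZNF738 and 36 in ZNF208. A KRAB core was found in 204 of the 241. It was also found in 11 of 1147 other protein-coding genes of the chromosome, those with a zinc finger gene symbol left out.

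The first full finger with its linker is shown for 4 members, because they carry the largest named rise (ZNF583), the largest named fall (ZNF470) and a pair of neighbours that were both lower (ZNF799 and ZNF443). Capitals mark the codons of the zinc-binding cysteines and histidines, read 5′ to 3′ from GENCODE 29 transcripts.
ZNF583: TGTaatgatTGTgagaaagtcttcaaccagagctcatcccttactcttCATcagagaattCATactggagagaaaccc
ZNF470: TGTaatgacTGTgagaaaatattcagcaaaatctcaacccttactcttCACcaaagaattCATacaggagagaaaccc
ZNF799: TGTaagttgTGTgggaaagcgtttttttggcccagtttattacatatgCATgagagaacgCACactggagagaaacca
ZNF443: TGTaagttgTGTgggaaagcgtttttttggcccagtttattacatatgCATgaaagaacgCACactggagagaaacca
Over these 78 bases ZNF799 and ZNF443 differed at 1 base, ZNF583 and ZNF470 at 11, and ZNF583 and ZNF799 at 31. The longest identical stretch between the transcripts of ZNF799 and ZNF443 was 180 bases. Reads that fall wholly within such a stretch cannot be assigned to either gene from sequence. Over all their transcripts, 10.9% of the 75-base windows of ZNF799 and 21.5% of those of ZNF443 also occurred in another member. Neither ZNF583 nor ZNF470 had such a window. Genes other than the members were not searched for shared windows.

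The promoters of the same 4 genes are shown because they set ZNF583 and ZNF470, members of 1 cluster that changed in opposite directions, beside ZNF799 and ZNF443. Each runs from 250 bases before to 50 bases after a RefSeq start on GRCh38.p14, on the strand of the gene, with every CG dinucleotide in capitals. RefSeq lists 2 such promoters each for ZNF583 and ZNF799, and the one shown is 1 of them. ZNF583 is chr19:56403764-56404063 on the plus strand and ZNF470 is chr19:56567218-56567517 on the plus strand. ZNF799 is chr19:12401222-12401521 and ZNF443 is chr19:12440972-12441271, both on the minus strand.
ZNF583: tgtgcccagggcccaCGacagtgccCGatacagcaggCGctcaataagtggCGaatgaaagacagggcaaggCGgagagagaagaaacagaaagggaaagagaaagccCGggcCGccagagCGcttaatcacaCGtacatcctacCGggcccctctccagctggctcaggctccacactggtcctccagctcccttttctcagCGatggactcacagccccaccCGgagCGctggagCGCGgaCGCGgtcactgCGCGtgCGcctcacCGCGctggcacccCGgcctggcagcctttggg
ZNF470: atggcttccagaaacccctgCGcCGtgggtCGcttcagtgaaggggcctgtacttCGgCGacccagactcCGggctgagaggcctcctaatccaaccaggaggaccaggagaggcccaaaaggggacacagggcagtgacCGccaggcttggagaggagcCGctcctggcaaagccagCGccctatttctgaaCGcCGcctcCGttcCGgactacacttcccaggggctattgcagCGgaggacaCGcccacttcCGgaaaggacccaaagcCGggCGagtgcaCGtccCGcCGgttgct
ZNF799: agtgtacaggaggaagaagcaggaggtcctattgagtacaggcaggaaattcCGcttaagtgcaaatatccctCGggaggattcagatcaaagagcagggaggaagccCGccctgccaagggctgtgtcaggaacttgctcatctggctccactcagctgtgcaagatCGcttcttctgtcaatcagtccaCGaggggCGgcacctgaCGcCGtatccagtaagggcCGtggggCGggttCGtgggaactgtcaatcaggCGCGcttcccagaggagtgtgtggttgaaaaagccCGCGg
ZNF443: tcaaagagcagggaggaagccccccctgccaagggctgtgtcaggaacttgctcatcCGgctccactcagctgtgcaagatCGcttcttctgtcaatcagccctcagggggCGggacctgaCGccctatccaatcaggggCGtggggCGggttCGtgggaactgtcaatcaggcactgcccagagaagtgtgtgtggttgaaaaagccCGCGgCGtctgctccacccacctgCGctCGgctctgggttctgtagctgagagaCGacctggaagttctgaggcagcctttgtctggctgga
The ZNF583 window held 23 CG dinucleotides, ZNF470 held 21, ZNF799 held 15 and ZNF443 held 13. The longest identical stretch was 42 bases between the ZNF799 and ZNF443 windows and 8 bases between those of ZNF583 and ZNF470. None of the 4 held AACAAT, a core motif that SOX proteins bind, or CACGTG, the E-box motif of MYC and MAX, on either strand.

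The hairpin's target was checked first. SOX4 (ENSG00000124766) measured 191 and 199 CPM in the sh-SOX4 libraries, against 271 and 277 CPM in the sh-Scb libraries, where CPM is the count scaled to a common depth with TMM factors. Both sh-SOX4 libraries were lower, and 71.1% of the sh-Scb level remained (log2 fold change -0.49, SE 0.044, edgeR adjusted p = 1.24e-05). Library totals were 32872606 and 30830081 counts in sh-SOX4, against 36636219 and 29093287 in sh-Scb, so that 3 counts, the limit that a count of 0 allows, correspond to between 0.0819 and 0.103 CPM. All 11 T lymphoblast markers passed the filter on low counts, with summed levels of 2824 and 2812 CPM in sh-SOX4 and 2173 and 2191 CPM in sh-Scb. The 4 B cell markers summed to 14.6 and 14.1 CPM in sh-SOX4 and 68.3 and 66.5 CPM in sh-Scb, and the 4 fibroblast markers to 17.5 and 17.4 CPM in sh-SOX4 and 24.5 and 26.0 CPM in sh-Scb. Their part in the results below was not tested. Myeloid and epithelial markers summed to under 3 CPM in every library, with LYZ and COL1A2 at 0 counts in all. In bulk RNA, fewer cells with a transcript and less transcript per cell cannot be told apart.

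The question for the zinc finger genes was whether their transcripts differ when SOX4 is reduced, and whether they do so cluster by cluster. Their summed level was 3615 and 3558 CPM in the sh-SOX4 libraries, against 3662 and 3667 CPM in the sh-Scb libraries. The 187 members that passed the filter included 28 that were higher and 38 that were lower in sh-SOX4, at an adjusted p under 0.05 from edgeR's quasi-likelihood test. These 66 are 35.3% of the members tested, against 44.1% of all 19897 gene IDs tested. In sh-SOX4, 15% of the tested members were higher, against 23.2% of all IDs, and 20.3% were lower, against 20.9% of all IDs. Scaled by library totals in place of TMM, which moved the median of all IDs to -0.11, 19 members were higher and 48 lower. Few changes were large, with 3 of the rises and 5 of the falls reaching 2-fold, 4.28% of the tested members, against 9.45% of all IDs.

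**Figure D1:**
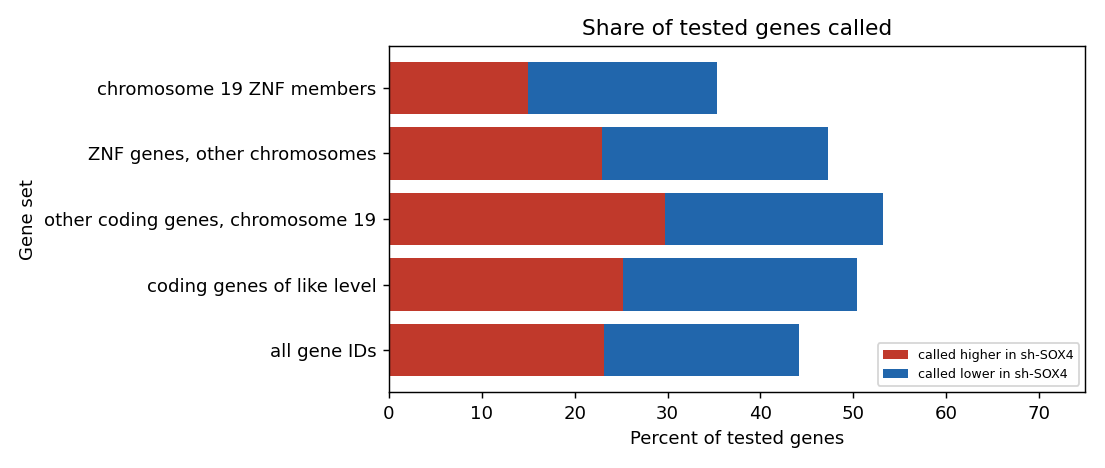
Percent of genes called higher or lower in sh-SOX4 relative to sh-Scb, for the chromosome 19 ZNF members and for the gene sets they are compared with. Members were called in 35.3% of cases, against 50.3% of coding genes at a similar level, 53.1% of other coding genes of chromosome 19 and 47.3% of ZNF genes elsewhere.

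The tested members had a median log2 CPM of 3.83, against 4.91 for all tested protein-coding genes, so the share was also read at a similar level. Among 2584 protein-coding genes at a similar level (within the members' quartiles of mean log2 CPM), 50.3% were called. Of 843 other protein-coding genes of chromosome 19, 53.1% were called, 29.7% higher and 23.5% lower. The share was 47.3% for 205 genes named ZNF and digits on other chromosomes. Among members with a mean log2 CPM over 3, 56 of 132 (42.4%) were called, against 61.9% of all IDs at that level. Among those between 1 and 3, 7 of 33 (21.2%) were called, against 35.1%, and under 1 the shares were 13.6% for members and 14.4% for all IDs.

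The median log2 fold change of the tested members was -0.04, with quartiles of -0.30 and 0.26, against a median of -0.01 over all IDs tested. The sh-SOX4 and sh-Scb libraries did not overlap for 127 of 187 members (67.9%), against 72.9% of all IDs. Of the 187 tested, 138 share under 10% of their exonic bases with other genes and under 10% of their 75-base windows with other members. Among the calls were 16 of the other 49. Of the 54 members not tested, 18 had 0 counts in every library and 36 had at least 1 count. None of the 66 calls took the opposite sign when any 1 library was left out, but the calls that remained numbered 49 without sh-SOX4 replicate 1, 54 without sh-SOX4 replicate 2, 55 without sh-Scb replicate 1 and 48 without sh-Scb replicate 2.

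Of the 38 members that were lower, 20 lay on the short arm. From its end to the ZNF101 to ZNF254 cluster beside the centromere, 5 of 61 tested members (8.2%) were higher and 20 (32.8%) were lower, with a median log2 fold change of -0.22. The other protein-coding genes there showed the opposite balance, with 145 of 418 (34.7%) higher and 98 (23.4%) lower, and a median of 0.04. On the long arm, 23 of 126 members (18.3%) were higher and 18 (14.3%) lower, with a median of 0.05, against 24.7% and 23.5% of 425 other protein-coding genes. This split of the chromosome was chosen after the values were seen, and the difference between its sides was not tested. With DESeq2 in place of edgeR, 13 short-arm members were lower and 5 higher.

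**Figure D2:**
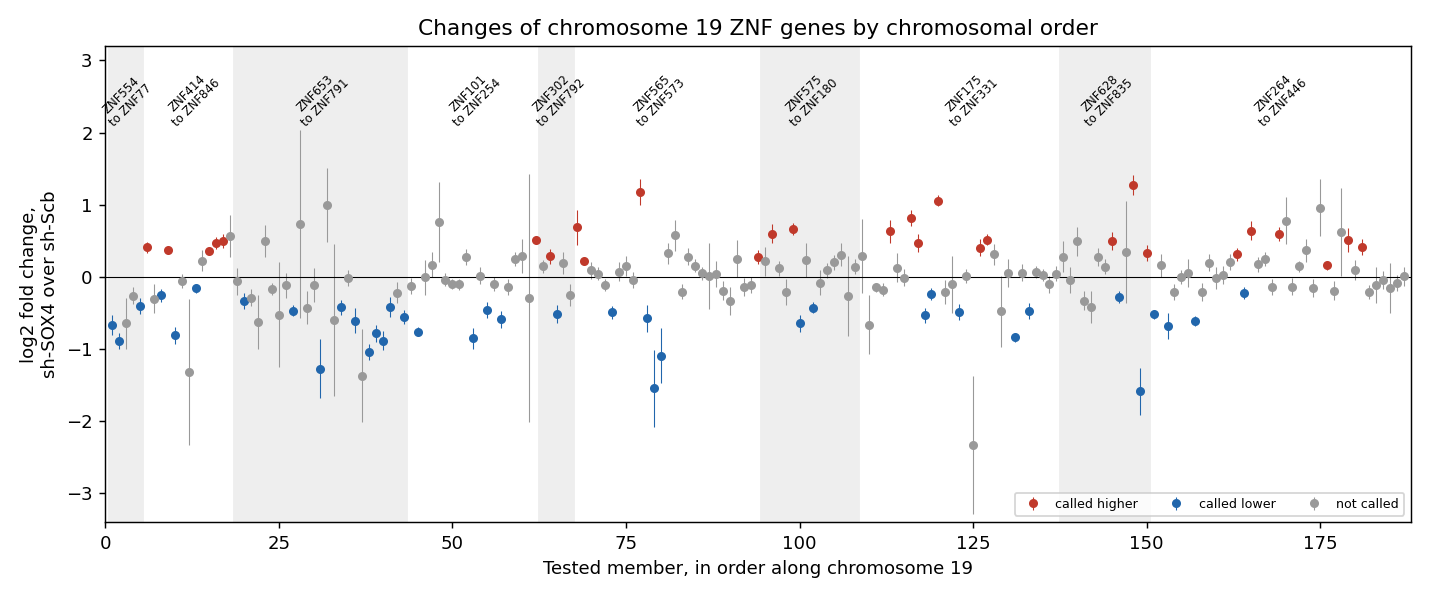
Log2 fold change (sh-SOX4 over sh-Scb) of each tested member, in order along chromosome 19, with clusters shaded. Members called lower crowd the left of the plot, in the ZNF554 to ZNF77 and ZNF653 to ZNF791 clusters, while rises and falls both occur further right.

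**Figure D3:**
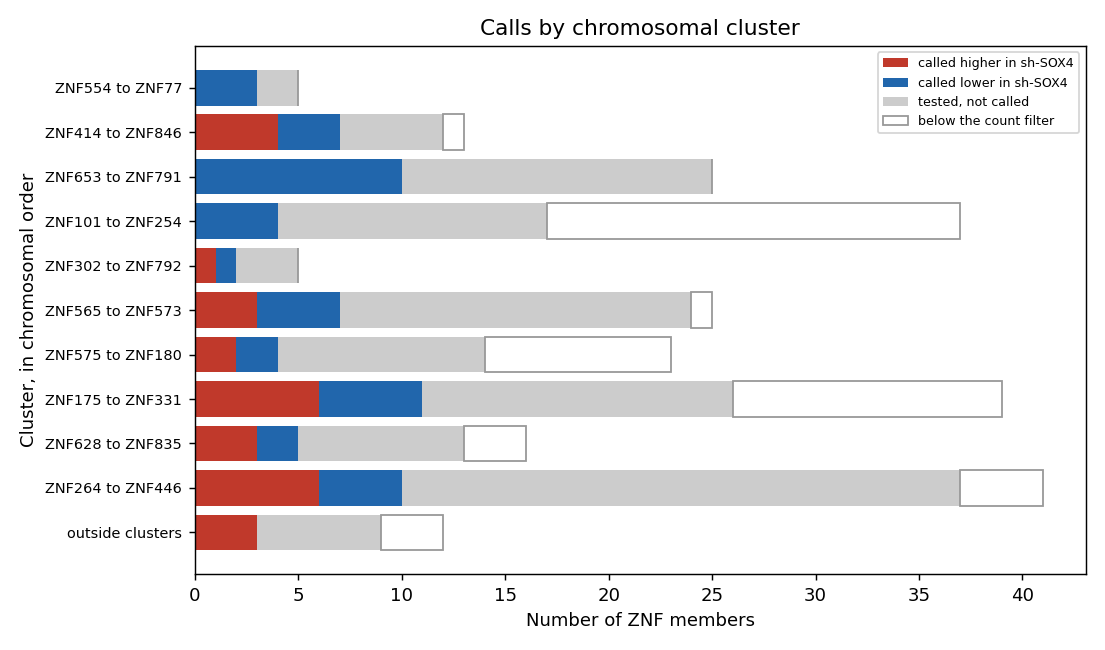
Number of members called higher, called lower, tested but not called, and not tested in each cluster, in chromosomal order. The ZNF653 to ZNF791 cluster has 10 of 25 tested members lower and 0 higher, and the ZNF101 to ZNF254 cluster has 4 of 17 lower and 0 higher. Of all IDs tested, 20.9% were lower and 23.2% higher.

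The ZNF653 to ZNF791 cluster held the most falls. It spans chromosome 19 from 11483427 to 12640098 with 25 members, of which 23 have a KRAB core, and all 25 were tested. In sh-SOX4, 10 were lower and 0 higher, and 22 of 25 had a negative log2 fold change, with a median of -0.42. At an unadjusted edgeR p under 0.05, 11 were lower and 1 higher, and DESeq2 and limma-voom called 0 higher. The summed level was 244 and 253 CPM in sh-SOX4, against 333 and 333 CPM in sh-Scb, so that both sh-SOX4 libraries lay below both sh-Scb libraries. Other protein-coding genes inside the span were few: of 5 tested, 2 were higher and 1 lower.

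ZNF799 (ENSG00000196466, chromosome 19, 12390016 to 12401271, minus strand), a KRAB protein with 15 fingers, had the smallest adjusted p of this cluster. It measured 12.8 and 13.8 CPM in sh-SOX4, against 25.4 and 29.3 CPM in sh-Scb. Both sh-SOX4 libraries were about level and well below the sh-Scb pair, with a log2 fold change of -1.04 (SE 0.11, edgeR adjusted p = 4.37e-05). ZNF443, its near copy in the finger shown above, is the next member along the chromosome. It measured 12.1 and 10.9 CPM in sh-SOX4, against 19.1 and 20.6 CPM in sh-Scb, again with no overlap (log2 fold change -0.78, SE 0.12, edgeR adjusted p = 0.000345). Because the genes share sequence, a read from one could have been counted for the other.

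The run of falls went on to the following members. ZNF709, with 19 fingers, measured 9.27 and 11.5 CPM in sh-SOX4, against 19.4 and 18.99 CPM in sh-Scb (log2 fold change -0.89, SE 0.13, edgeR adjusted p = 0.000331). ZNF564 measured 10.2 and 8.499 CPM in sh-SOX4, against 12.6 and 12.5 CPM in sh-Scb (log2 fold change -0.42, edgeR adjusted p = 0.0303). The groups did not overlap for either. Other annotated genes share 79.2% of the exonic bases of ZNF709 and 69.9% of those of ZNF564, so the counts of both are uncertain. The call of ZNF564 was lost with DESeq2 and thinning, and without any library but sh-SOX4 replicate 1.

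Members of the cluster with little sharing fell too. ZNF791, the last member, measured 24.8 and 28.5 CPM in sh-SOX4, against 37.4 and 41.2 CPM in sh-Scb (log2 fold change -0.56, edgeR adjusted p = 0.00102). ZNF136 had a log2 fold change of -0.42, ZNF563 of -0.61 and ZNF627 of -0.33, each with an edgeR call. The calls of ZNF563 and ZNF627 were lost with DESeq2 and without sh-SOX4 replicate 1 or sh-Scb replicate 2. ZNF844, at 0.662 and 0.470 CPM in sh-SOX4 and 1.14 and 1.63 CPM in sh-Scb, was also called (log2 fold change -1.27, edgeR adjusted p = 0.028), at a low level, but not with DESeq2 or without either replicate 2. Among the 13 members with under 10% of exonic bases and of windows shared, 5 were lower and 0 higher.

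ZNF700, the member with the most reads per exonic length in this cluster, measured 41.3 and 41.5 CPM in sh-SOX4, against 60.7 and 54.0 CPM in sh-Scb, where the replicates were further apart than in sh-SOX4 (log2 fold change -0.47, SE 0.075, edgeR adjusted p = 0.000606). ZNF653, the first member, measured 4.45 and 4.57 CPM in sh-SOX4 and 4.84 and 4.55 CPM in sh-Scb, and its groups overlapped (edgeR adjusted p = 0.823). The 3 members with a positive log2 fold change did not pass the test. They were ZNF491 at 0.50, ZNF763 at 0.73 and ZNF20 at 1.00, named after their values were seen. The count of falls in the cluster was 6 with DESeq2 or without sh-Scb replicate 2, and 1 member was called higher when either sh-Scb library was left out.

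**Figure D4:**
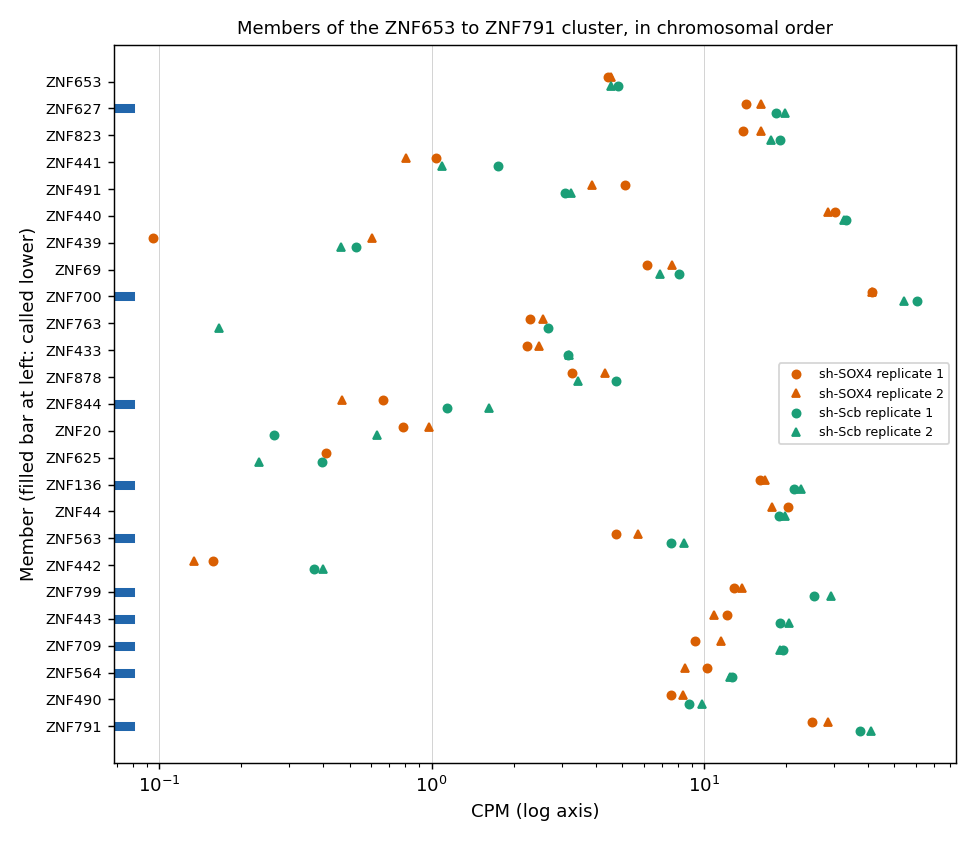
CPM on a horizontal log axis for each member of the ZNF653 to ZNF791 cluster, in chromosomal order. In each row sh-SOX4 libraries are drawn above sh-Scb libraries. A library at 0 CPM is not drawn. The sh-SOX4 points lie at lower CPM than the sh-Scb points for most members, among them the adjacent ZNF799, ZNF443, ZNF709 and ZNF564.

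The ZNF554 to ZNF77 cluster, nearest the short-arm end at 2819874 to 2944971, was small. All 5 members were tested and all 5 had a negative log2 fold change (median -0.65), with 3 called lower and 0 higher by edgeR. At an unadjusted p under 0.05, 4 were lower and 0 higher, and DESeq2 called 2 lower and 0 higher. Their summed level was 49.7 and 48.2 CPM in sh-SOX4, against 71.2 and 74.5 CPM in sh-Scb. ZNF555, a KRAB protein with 15 fingers, measured 14.9 and 13.0 CPM in sh-SOX4, against 26.1 and 25.7 CPM in sh-Scb (log2 fold change -0.89, SE 0.11, edgeR adjusted p = 8.98e-05). ZNF554 measured 7.72 and 7.69 CPM in sh-SOX4, against 11.6 and 12.9 CPM in sh-Scb (log2 fold change -0.67, edgeR adjusted p = 0.00264). For both genes every sh-SOX4 library lay below every sh-Scb library.

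ZNF77, the last member, measured 12.5 and 12.3 CPM in sh-SOX4, against 15.8 and 17.0 CPM in sh-Scb (log2 fold change -0.40, edgeR adjusted p = 0.0151), and its call was lost with DESeq2, without sh-SOX4 replicate 2 and without sh-Scb replicate 2. ZNF57, the highest of the 5 per exonic length, measured 12.9 and 14.3 CPM in sh-SOX4 and 15.8 and 16.7 CPM in sh-Scb and did not pass (log2 fold change -0.26, edgeR adjusted p = 0.0945). The median of the cluster lay between -0.74 and -0.39 when each library was left out in turn.

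The ZNF414 to ZNF846 cluster, at 8509678 to 9793180, was mixed, with 4 of 12 tested members higher and 3 lower. Its summed level was 420 and 414 CPM in sh-SOX4, against 391 and 378 CPM in sh-Scb. The adjacent ZNF121, ZNF561 and ZNF562 were all higher. ZNF121 measured 106 and 106 CPM in sh-SOX4, against 84.5 and 81.6 CPM in sh-Scb (log2 fold change 0.35, SE 0.051, edgeR adjusted p = 0.000295). ZNF317, a KRAB protein nearby, measured 70.8 and 74.4 CPM in sh-SOX4, against 56.6 and 55.8 CPM in sh-Scb (log2 fold change 0.37).

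Against these rises, ZNF699 measured 12.1 and 10.98 CPM in sh-SOX4, against 21.1 and 19.4 CPM in sh-Scb, with the smallest adjusted p of the cluster (log2 fold change -0.81, SE 0.11, edgeR adjusted p = 0.000266). ZNF558 was lower by a log2 fold change of -0.26, a call lost with DESeq2 and without either replicate 1. ZNF266 had the highest level per kb of exon, at 15.01 CPM per kb in sh-SOX4 and 16.8 in sh-Scb. It was just past the threshold (log2 fold change -0.16, edgeR adjusted p = 0.046), and its call was lost with DESeq2, limma-voom, no filter and the replicate block, and without sh-SOX4 replicate 2 or sh-Scb replicate 1. The first and last members, ZNF414 at -0.31 and ZNF846 at 0.57, did not pass.

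The ZNF101 to ZNF254 cluster lies at 19668796 to 24129961, beside the centromere. Of its 37 members 17 were tested and 6 had 0 counts in every library. In sh-SOX4, 4 were lower and 0 higher by edgeR, DESeq2 and limma-voom alike, with 2 higher at an unadjusted edgeR p under 0.05. By edgeR, 20.9% of all IDs were lower and 23.2% higher, so 4 of 17 lower is near the background share. With the GC and length offset, or without any library but sh-SOX4 replicate 1, 1 member was called higher. The median was -0.10, and the summed level was 449 and 429 CPM, against 517 and 524 CPM in sh-Scb. ZNF101, a KRAB protein with 9 fingers, measured 75.3 and 82.8 CPM in sh-SOX4, against 137 and 131 CPM in sh-Scb. The drop exceeded the gap between replicates in both groups (log2 fold change -0.76, SE 0.059, edgeR adjusted p = 4.89e-06).

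ZNF738, a member in which no finger was found, measured 10.8 and 8.20 CPM in sh-SOX4, against 16.8 and 17.7 CPM in sh-Scb (log2 fold change -0.85, edgeR adjusted p = 0.000911). ZNF100 at -0.46 and ZNF724 at -0.59 were the other falls, and 44.8% of the exonic bases of ZNF724 are shared with other genes. ZNF91, a repressor of SVA retrotransposons with 31 fingers, was not called (log2 fold change -0.14, edgeR adjusted p = 0.359). ZNF93, a repressor of L1 elements, had 0 and 6 counts in sh-SOX4 and 2 and 3 in sh-Scb, too few to test. Both were named for their known roles and not by their values.

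On the long arm, calls went both ways within each cluster. In the ZNF565 to ZNF573 cluster, at 36182060 to 37817300, 3 of 24 tested members were higher and 4 lower, or 1 higher and 5 lower when scaled by library totals. With DESeq2 1 was lower. Its summed level was 568 and 530 CPM in sh-SOX4, against 512 and 510 CPM in sh-Scb. The sum is led by ZNF146, a protein without a KRAB box known as OZF, which measured 207 and 196 CPM in sh-SOX4, against 176 and 170 CPM in sh-Scb. With 48.6 CPM per kb in sh-SOX4 and 41.7 in sh-Scb, ZNF146 had the highest level per exonic length of all members. It was higher by a log2 fold change of 0.22 (SE 0.048, edgeR adjusted p = 0.00417), a call that was lost when libraries were scaled by total counts.

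ZNF790 had the second largest named rise. It measured 9.55 and 7.86 CPM in sh-SOX4, against 3.89 and 3.82 CPM in sh-Scb (log2 fold change 1.18, SE 0.18, edgeR adjusted p = 0.000429). Its next neighbours were lower. ZNF345 had a log2 fold change of -0.57, and ZNF829 (-1.55) and ZNF568 (-1.09), both under 3 CPM in every library, were also called. All 3 calls were lost with DESeq2 and without sh-Scb replicate 2, and that of ZNF829 without any single library. ZNF382, a KRAB protein, was lower at 19.2 and 18.6 CPM in sh-SOX4, against 26.1 and 27.1 CPM in sh-Scb. ZNF565, the first member, was called higher (log2 fold change 0.69, edgeR adjusted p = 0.0418). Its call was lost in several alternatives, among them without sh-SOX4 replicate 1 or sh-Scb replicate 2. The far more abundant ZNF146 lies within its span on the opposite strand. Other genes share 11.6% of the exonic bases of ZNF565, so its counts may include their reads. ZNF573, the last member, was not called.

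The ZNF175 to ZNF331 cluster, at 51571298 to 53580269, held 39 members, all with a KRAB core, of which 26 were tested. In sh-SOX4, 6 were higher and 5 lower, and the sum was 519 and 500 CPM, against 511 and 506 CPM in sh-Scb. ZNF480 measured 59.2 and 56.3 CPM in sh-SOX4, against 27.2 and 28.5 CPM in sh-Scb, over a 2-fold rise with small replicate gaps (log2 fold change 1.06, SE 0.075, edgeR adjusted p = 2.60e-06). ZNF766, the gene beside it, was called lower (log2 fold change -0.23), a call lost with DESeq2, the replicate block and any library left out but sh-SOX4 replicate 1. ZNF160, a KRAB protein with 20 fingers, measured 44.4 and 42.3 CPM in sh-SOX4, against 79.1 and 75.7 CPM in sh-Scb (log2 fold change -0.84, SE 0.063, edgeR adjusted p = 3.67e-06).

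ZNF614 measured 25.4 and 22.6 CPM in sh-SOX4, against 13.4 and 14.0 CPM in sh-Scb (log2 fold change 0.81, SE 0.11, edgeR adjusted p = 0.000176). ZNF613, close by, was higher at 13.3 and 11.7 CPM in sh-SOX4, against 7.12 and 9.06 CPM in sh-Scb (log2 fold change 0.63, edgeR adjusted p = 0.00812). ZNF432, ZNF28 and ZNF468 were also higher, and ZNF616, ZNF83 and ZNF525 were also lower. The calls of ZNF432 and ZNF28 were lost without sh-SOX4 replicate 1 and without sh-Scb replicate 1 (ZNF432) or 2 (ZNF28). ZNF468 shares 53.3% of its exonic bases with other genes, and 53.2% of its windows also occur in another member. The first and last members, ZNF175 and ZNF331, were not called.

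In the ZNF628 to ZNF835 cluster, at 55476332 to 56671783, the largest named rise and fall lay close together. In all, 3 of 13 tested members were higher and 2 lower, and the median log2 fold change was 0.27. ZNF583 (ENSG00000198440, chromosome 19, 56397966 to 56436035, plus strand), a KRAB protein with 12 fingers, measured 16.1 and 14.3 CPM in sh-SOX4, against 6.67 and 5.84 CPM in sh-Scb. Each sh-SOX4 library was above 2 times either sh-Scb library (log2 fold change 1.28, SE 0.14, edgeR adjusted p = 4.90e-05). ZNF470 (ENSG00000197016, 56567511 to 56588911, plus strand), with 17 fingers, had 41 and 29 counts in sh-SOX4, against 99 and 128 in sh-Scb. These equal 1.29 and 0.974 CPM in sh-SOX4, against 2.62 and 4.25 CPM in sh-Scb, where the replicates differed most (log2 fold change -1.59, SE 0.32, edgeR adjusted p = 0.00255).

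ZNF71, next to ZNF470, was called higher (log2 fold change 0.33), as was ZNF787 (0.50), and ZNF444, a SCAN-domain protein, was called lower (-0.28). The call of ZNF71 was lost with DESeq2, the replicate block and any library left out, that of ZNF787 without sh-Scb replicate 1 and that of ZNF444 without sh-SOX4 replicate 1. ZNF581, the highest member of the cluster per exonic length, and ZNF628, its first member, were not called, and ZNF835, its last, had 0 counts in every library. Among 11 other protein-coding genes tested inside the span, 4 were higher and 1 lower.

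**Figure D5:**
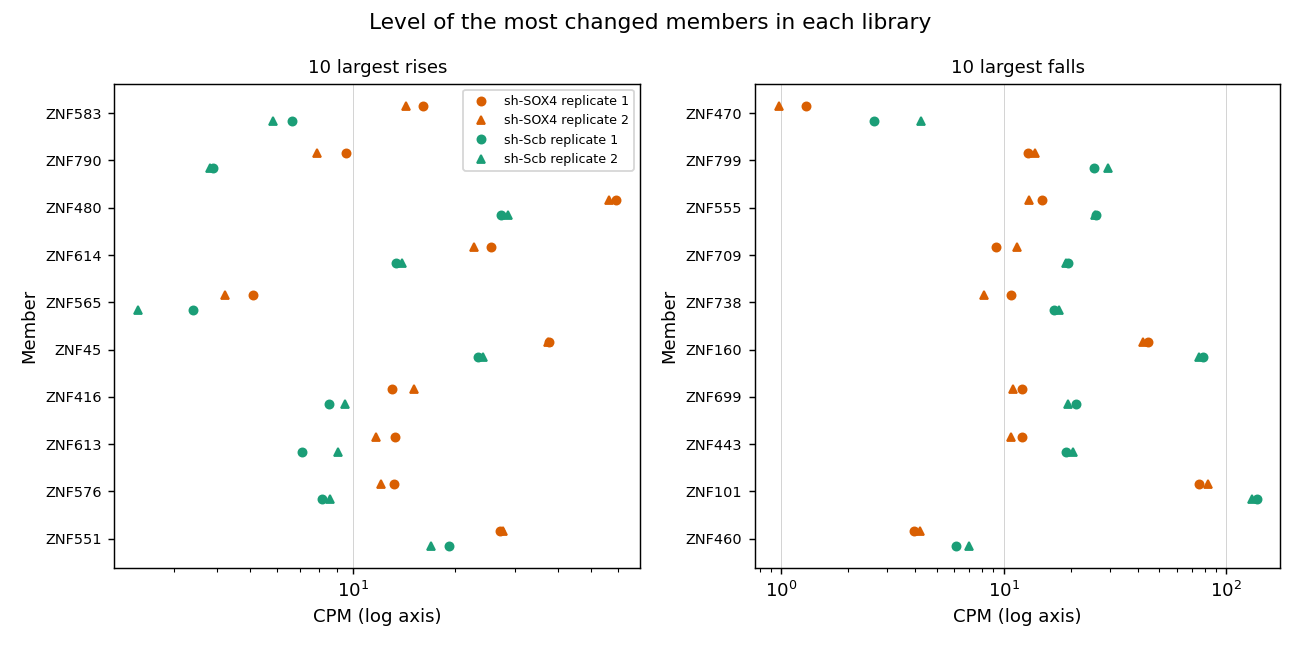
CPM on a horizontal log axis of the 10 largest named rises and 10 largest named falls among the members. There is one point per library, and sh-SOX4 is drawn above sh-Scb in each row. The groups do not overlap for any of the 20, and ZNF470 shows the widest gap between its sh-Scb replicates.

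The ZNF264 to ZNF446 cluster, next to the long-arm end at 57191500 to 58481230, had 6 of 37 tested members higher and 4 lower, or 3 higher and 6 lower when scaled by library totals. Its sum was 683 and 707 CPM in sh-SOX4, against 699 and 709 CPM in sh-Scb, so the groups overlapped. ZNF548 measured 35.9 and 36.0 CPM in sh-SOX4, against 54.4 and 55.5 CPM in sh-Scb (log2 fold change -0.61, SE 0.069, edgeR adjusted p = 5.72e-05). ZNF264, the first member, measured 53.8 and 57.7 CPM in sh-SOX4, against 78.8 and 81.2 CPM in sh-Scb (log2 fold change -0.52, SE 0.061, edgeR adjusted p = 7.17e-05). The 4 falls were completed by ZNF460 (-0.68, with a call lost without sh-Scb replicate 2) and ZNF550 (-0.23, with a call lost with DESeq2 and without sh-SOX4 replicate 1 or sh-Scb replicate 2).

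Of the rises here, ZNF416 measured 13.0 and 15.1 CPM in sh-SOX4, against 8.54 and 9.50 CPM in sh-Scb (log2 fold change 0.64). ZNF551 measured 27.1 and 27.5 CPM in sh-SOX4, against 19.2 and 16.9 CPM in sh-Scb (log2 fold change 0.59, edgeR adjusted p = 0.000922). ZNF587, at 9.11 CPM per kb in sh-SOX4 and 8.15 in sh-Scb, was the highest per exonic length and was called higher by a small margin (log2 fold change 0.16, edgeR adjusted p = 0.0495). Other genes share 35.0% of its exonic bases, and its call was lost in most alternatives, the omission of any library among them. ZNF446 was not called. ZNF274, in the same stretch, encodes a factor known to bind zinc finger genes and help place H3K9 methylation on them, and it was not called (log2 fold change 0.09, edgeR adjusted p = 0.634).

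In the ZNF575 to ZNF180 cluster, at 43525497 to 44500524, 2 of 14 tested members were higher and 2 lower. ZNF45 measured 37.6 and 37.4 CPM in sh-SOX4, against 23.2 and 24.1 CPM in sh-Scb (log2 fold change 0.66, SE 0.084, edgeR adjusted p = 0.000131), and ZNF576 was the other rise (0.60). ZNF230 (-0.65) and ZNF224, a KRAB protein with 40.5% of its exonic bases shared (-0.43), were called lower. ZNF428, the highest per exonic length, and the end members ZNF575 and ZNF180 were not called. In the ZNF302 to ZNF792 cluster, at 34677639 to 34964049, ZNF181 was higher (0.28, edgeR adjusted p = 0.0449), ZNF599 lower (-0.51, with a call lost without sh-SOX4 replicate 1) and 3 of 5 members, ZNF302 and ZNF792 among them, were not called. The call of ZNF181 was lost with library totals, no filter, DESeq2, limma-voom and the replicate block, and without any library but sh-Scb replicate 1.

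Outside the clusters, 3 of 9 tested members were higher and the other 6 were not called. ZNF507 measured 85.7 and 88.3 CPM in sh-SOX4, against 63.1 and 58.8 CPM in sh-Scb (log2 fold change 0.51, SE 0.058, edgeR adjusted p = 6.07e-05). ZNF557 measured 42.7 and 42.8 CPM in sh-SOX4, against 32.1 and 32.2 CPM in sh-Scb (log2 fold change 0.41, edgeR adjusted p = 0.00154). ZNF526 was past the threshold by little (log2 fold change 0.28, edgeR adjusted p = 0.0399), and its call was lost in most alternatives, the omission of any library among them.

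Neighbours did not always move the same way. Of 20 pairs of adjacent members that were both called, 6 were both lower, 5 both higher and 9 opposite. Some of these pairs hold a call that was lost in an alternative, among them ZNF766 with ZNF480 and ZNF470 with ZNF71. In others, reads may be shared between genes, as for ZNF799 with ZNF443 and ZNF709 with ZNF564. Adjacent pairs of genes other than the members were not counted. By sequence, members with a KRAB core had 22 of 158 higher and 36 lower (median log2 fold change -0.07), and those without had 6 of 29 higher and 2 lower (median 0.14). Among members with 9 or fewer fingers 6 of 56 were higher and 12 lower, and among those with 15 or more, 4 of 53 were higher and 13 lower. In either direction, 36.7% of members with a KRAB core, 27.6% of those without and 32.1% of each finger group were called. The share was 35.3% of all tested members (15% higher, 20.3% lower) and 44.1% of all IDs (23.2% higher, 20.9% lower). No test of these differences was run.

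The promoters of the members were rich in CG. RefSeq gave 261 promoters for 210 of the members, with a median of 20 CG dinucleotides and a GC content of 60.3%, against 14 and 58.7% over all 35116 promoters in the table. AACAAT on either strand occurred in 13 member promoters (4.98%), against 10.1% of all promoters, and CACGTG in 11 (4.21%), against 7.26%. Of 34 promoters of members that were higher, 1 held AACAAT and 4 held CACGTG, and of 45 promoters of members that were lower, 1 held each.

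The proteins that zinc finger repressors work through were read from a list of 38 corepressor and chromatin genes, all tested. In sh-SOX4, 15 were higher, 9 lower and 14 not called. All 38 had a mean log2 CPM over 3, where 61.9% of all IDs were called, so this share is near the background. TRIM28 (chromosome 19, 58544091 to 58550722), the scaffold that KRAB boxes bind, measured 356 and 379 CPM in sh-SOX4, against 285 and 275 CPM in sh-Scb (log2 fold change 0.39, SE 0.046, edgeR adjusted p = 7.24e-05). SETDB1, the H3K9 methyltransferase it recruits, measured 56.8 and 55.5 CPM in sh-SOX4 and 52.9 and 54.2 CPM in sh-Scb and was not called (edgeR adjusted p = 0.405). Its partner ATF7IP was higher (0.72), as were the HUSH-associated ATPase MORC2 (0.72) and the HUSH subunit PPHLN1 (0.64). The other listed HUSH subunits, TASOR (-0.009) and MPHOSPH8 (-0.14), were not called.

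The HP1 genes split. CBX3 was higher (0.26), and CBX5 (-0.39) and CBX1 (-0.25) were lower. The 3 smallest adjusted p-values of the list belonged to KDM4B, GATAD2A and MBD3. KDM4B, a demethylase of H3K9, measured 48.3 and 48.2 CPM in sh-SOX4, against 149 and 154 CPM in sh-Scb (log2 fold change -1.65, SE 0.051, edgeR adjusted p = 2.46e-08). GATAD2A and MBD3, subunits of the NuRD deacetylase complex, were higher by log2 fold changes of 0.82 and 0.93. Other listed NuRD subunits went both ways, with HDAC2 (0.51) and MTA2 (0.34) higher and GATAD2B (-0.40) and RBBP7 (-0.14) lower. CHD3, CHD4, HDAC1, RBBP4 and MTA1 were not called. DNMT3B, a DNA methyltransferase, was lower (-0.68). In addition, 17 genes of chromosome 19 with other zinc finger symbols were tested, picked by symbol alone and not checked for C2H2 fingers. Of these, 4 (23.5%) were higher and 6 (35.3%) lower, against 23.2% and 20.9% of all IDs. The lower ones include ZFP36 (-0.66), which may not be a relative of the members.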

How the data were processed

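The deposited table held whole-number counts per Ensembl gene ID, not normalized, for 2 sh-SOX4 and 2 sh-Scb libraries. Per the submitters' processing notes, HISAT2 2.2.0, StringTie and hg38 were used. For their roles, the annotation release and whether strand was used, nothing is stated in the sources used here. Reads of overlapping, antisense or near-identical genes therefore cannot be told apart. Control columns bear the name NC and were read as sh-Scb because the others name SOX4.

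Members were found with GENCODE 29 (GRCh38) biotypes and coordinates and current symbols. Of 64252 IDs, 56591 were in GENCODE 29. Members and lists were chosen with earlier results of these data known. Low counts were removed by filterByExpr (10 per library, 15 in total), TMM gave the scaling, and edgeR 4.0.16 fitted its robust quasi-likelihood model by group in R 4.3.3, and the Benjamini-Hochberg adjustment ran over 19897 IDs. The SE is the size of the log2 fold change divided by the square root of F. Separate cultures are not stated for the replicates, so the p-values cover only the spread between these libraries, and that spread may be technical. The median chi-square per gene between replicates was 1.60 in sh-SOX4 and 1.71 in sh-Scb, against 0.455 for sampling alone. Limits from a count of 0 cover counting error only.

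Named members were the first, last, highest (per exonic length) and smallest-p member of each cluster, the 10 largest rises and 10 largest falls among calls whose mean log2 CPM reached 1 without overlap between groups, and up to 4 called members outside clusters. Of the pathway genes, TRIM28, SETDB1 and the 3 with the smallest adjusted p were named by rule. Other genes were named after their values were seen, or for a known role. Fingers (C, 2 to 4 residues, C, 12 residues, H, 3 to 5 residues, H) and the KRAB core (at most 2 mismatches over 9 positions) were read from translated GENCODE 29 transcripts, in place of the RefSeq proteins first planned, and promoters from RefSeq (GRCh38.p14). The pipeline was tested on simulated data. Alternatives were other scalings and filters, DESeq2 1.42.0, limma-voom (limma 3.58.1), a replicate block, a GC and length offset, thinning to 29093287 counts, other cluster gaps, members with little sharing, and each library left out. Counts by arm were added after the data were seen. One marker list is not reported here. Figures were drawn with matplotlib 3.10.9.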

Additional observations from a re-analysis of the deposited data

How the results depend on the processing

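No called member turned its sign under any alternative run. Of the 66 calls, 66 remained with median-ratio size factors, 64 with at least 1 CPM in 2 libraries, 62 with a GC and length offset or with thinning, 61 with limma-voom, 57 with library totals, 56 with no filter and 47 with DESeq2. Across genes, the deviations of same-numbered libraries were not correlated (r = -0.01), though single genes such as ZNF254, described below, deviated together. Whether same-numbered libraries share a culture or batch is not stated in the sources used here and was not tested. With the replicate block 26 members were higher and 35 lower, 59 of the calls remained, and ZNF266, ZNF181, ZNF829, ZNF526, ZNF766, ZNF71 and ZNF587 lost theirs. Leaving out a library leaves 1 in its group, which is then assumed to vary like the other group. The members higher then numbered 20 to 28 and those lower 28 to 36, short-arm members higher 5 to 7 and lower 16 to 19, and the median log2 fold change of the tested members lay between -0.043 and 0.034. With DESeq2, short-arm falls numbered 13.

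Scaling by library totals moved the median of all IDs to -0.11 and the split of members to 19 higher and 48 lower, against 28 and 38. It moved the median of the tested members to -0.14, and cluster medians to -0.52 (ZNF653 to ZNF791), -0.20 (ZNF101 to ZNF254), 0.049 (ZNF302 to ZNF792), 0.031 (ZNF575 to ZNF180), -0.083 (ZNF175 to ZNF331), 0.17 (ZNF628 to ZNF835), -0.074 (ZNF264 to ZNF446), -0.014 (ZNF414 to ZNF846) and -0.053 (ZNF565 to ZNF573). With it, 1 member of ZNF565 to ZNF573 was higher and 5 lower, and 3 of ZNF264 to ZNF446 higher and 6 lower. With members whose mean log2 CPM reached 1 the median of all members was -0.0056, that of ZNF414 to ZNF846 was 0.23 and that of ZNF653 to ZNF791 was -0.33. With no filter the medians were -0.059 for ZNF414 to ZNF846, -0.044 for ZNF101 to ZNF254 and 0.080 for ZNF575 to ZNF180. With the GC and length offset they were -0.52 for ZNF653 to ZNF791, -0.026 for ZNF101 to ZNF254, 0.080 for ZNF575 to ZNF180 and -0.041 for ZNF175 to ZNF331. With that offset and the replicate block they were -0.53, -0.027, 0.080 and -0.034 in the same order, and 0.18 for ZNF628 to ZNF835. With members under 10% of exonic bases shared they were 0.23 for ZNF414 to ZNF846, -0.47 for ZNF653 to ZNF791 and 0.12 for ZNF628 to ZNF835, which was 0.16 with limma-voom. A gap of 250 kb or 1000 kb gave 0.29 or 0.23 for the run holding most of ZNF414 to ZNF846, and 1000 kb gave 0.071 for a run joining ZNF628 to ZNF446. The cause of these shifts was not tested.

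When each library was left out, cluster medians ranged from -0.74 to -0.39 (ZNF554 to ZNF77), 0.0097 to 0.29 (ZNF414 to ZNF846), -0.43 to -0.35 (ZNF653 to ZNF791), -0.14 to -0.024 (ZNF101 to ZNF254), 0.072 to 0.20 (ZNF302 to ZNF792), -0.05 to 0.13 (ZNF565 to ZNF573), 0.10 to 0.22 (ZNF575 to ZNF180), -0.034 to 0.057 (ZNF175 to ZNF331), 0.11 to 0.30 (ZNF628 to ZNF835) and -0.01 to 0.10 (ZNF264 to ZNF446). At a mean log2 CPM under 1, 13.6% of tested members and 14.4% of all IDs were called, against 42.4% and 61.9% at over 3.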

Other observations

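In 3 tested members, libraries of the same group differed by over 3-fold at a mean of at least 30 counts. ZNF254, the last member of the ZNF101 to ZNF254 cluster, had 252 and 30 counts in sh-SOX4, against 359 and 42 in sh-Scb, so that replicate 1 exceeded replicate 2 in both groups. After scaling, replicate 1 over replicate 2 was 7.88 in sh-SOX4 and 6.81 in sh-Scb, and 3.6% of its exonic bases are shared with other genes. ZNF763 had 73 and 76 counts in sh-SOX4, against 101 and 5 in sh-Scb. ZNF177 had 30 and 22 counts in sh-SOX4, against 137 and 16 in sh-Scb. Other genes share 48.2% of the exonic bases of ZNF763 and 90.8% of those of ZNF177. ZNF497, which did not pass the filter, had 0 counts in both sh-SOX4 libraries and in sh-Scb replicate 1, and 180 counts in sh-Scb replicate 2. None of the tested 3 was called.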
